A study of Homo sapiens with 2 samples.

Results

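The 9 genes described here encode parts of the MHC class I antigen presentation pathway: B2M, HLA-B, HLA-C, HLA-E, TAP1, TAP2, TAPBP, PSMB8 and PSMB9. They were taken from a list of symbols by their role in the pathway. The members and the gene lists compared with them below were chosen with earlier results of these data known. All 9 were found among the 30796 genes of the deposited matrix. The study profiled single cells of human triple-negative breast cancer lines by Drop-seq, in which a droplet joins 1 cell with 1 barcoded bead and each captured RNA molecule is tagged with a unique molecular identifier (UMI). The lines MDAMB468 and CAL51 were represented by 1 library each, with no treatment, genotype change or time point named in the labels. MDAMB468 is a basal-like line known for an amplified EGFR gene and the loss of RB1. No sample of either line was replicated, so no test was made, and a difference between the lines cannot be told apart from a difference between the libraries. Every range in parentheses after a value is an exact 95% interval that covers counting error only.

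MHC class I molecules show short peptides from a cell's own proteins to CD8 T cells and natural killer cells. A heavy chain (HLA-B, HLA-C or HLA-E here) pairs with the light chain β2-microglobulin, encoded by B2M. Peptides are cut by the proteasome, whose interferon-inducible form carries the subunits encoded by PSMB8 and PSMB9, pumped into the endoplasmic reticulum by the transporter TAP1/TAP2, and loaded with the help of tapasin, encoded by TAPBP. Interferons raise the transcription of the whole pathway in many cell types, and tumours often lose part of it.

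Several of these genes carry an interferon-stimulated response element, a site bound by interferon regulatory factors, close to their start. The core was searched on both strands as GAAA followed after any 2 bases by GAAA. The stretches holding it are shown because 4 members have such matches wholly before a RefSeq transcription start. TAP1 and TAPBP, members with the smallest differences between the lines, are among them. They are RefSeq sequences on GRCh38.p14, each 30 bases long and written 5′ to 3′ in the direction of the gene, and the capitals mark the core or overlapping cores. The B2M stretch is chr15:44711366-44711395 on the plus strand. The others lie on the minus strand, at chr6:32853816-32853845 for TAP1, chr6:32838778-32838807 for TAP2 and chr6:33314079-33314108 for TAPBP. The TAP1 and TAPBP stretches lie inside the GENCODE release 29 gene models, which begin further upstream, at 32853978 and 33314387.
B2M: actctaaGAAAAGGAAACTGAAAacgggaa
TAP1: cggccgcTTTCGATTTCGCTTTCccctaaa
TAP2: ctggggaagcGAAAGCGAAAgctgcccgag
TAPBP: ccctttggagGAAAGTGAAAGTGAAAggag

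The capitals begin 144 bases before the RefSeq start in B2M, 134 in TAP1 (start at position 32853704), 58 in TAP2 and 20 in TAPBP. B2M, TAP1 and TAPBP each hold 2 overlapping matches. TAP1 has a second RefSeq start, at position 32852761, whose window holds no match. PSMB8 has 2 RefSeq starts, and a match spans the one at position 32844047, while the window of the other holds none. Of the 8 members with a promoter sequence, 5 held at least 1 match in a window from 250 bases before to 50 after a start. Of the 35116 windows of all genes, 3.57% did. The first is a count of genes and the second a share of windows, and TAP1 and PSMB8 have 2 windows each. HLA-B, HLA-C and PSMB9 had no match to these letters in this window.

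HLA-B and HLA-C carried the kappaB core, GGGA followed after any 4 bases by CC on either strand. It was found in 25.6% of all windows and in at least 1 window of 5 of the 8 members. Their upstream stretches are shown because these are the member pair with the highest correlation between cells (below). They come from RefSeq, GRCh38.p14, minus strand, chr6:31357189-31357429 for HLA-B and chr6:31272131-31272342 for HLA-C, and the capitals mark the kappaB cores.
HLA-B: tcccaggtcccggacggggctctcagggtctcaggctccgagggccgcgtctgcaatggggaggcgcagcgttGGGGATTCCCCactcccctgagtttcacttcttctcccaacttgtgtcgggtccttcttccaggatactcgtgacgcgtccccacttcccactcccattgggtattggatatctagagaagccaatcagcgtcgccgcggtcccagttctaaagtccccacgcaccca
HLA-C: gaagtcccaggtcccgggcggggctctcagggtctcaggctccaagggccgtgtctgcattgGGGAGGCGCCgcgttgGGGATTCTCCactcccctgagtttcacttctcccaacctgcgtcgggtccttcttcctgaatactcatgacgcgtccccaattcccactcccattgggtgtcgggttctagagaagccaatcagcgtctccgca

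The 250 bases before the start were identical at 226 of 246 aligned positions (91.9%) between HLA-B and HLA-C. TAP1 and PSMB9 are neighbours on opposite strands: their nearest RefSeq starts are 488 bases apart, and the windows of these starts share 13 bases. Motif matches are descriptions of the reference sequence, and no binding was measured here.

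The MDAMB468 library held 306 barcodes with 5501900 UMIs, at a median of 10016.5 UMIs per barcode (range 2501 to 134213). From CAL51, 1346 of 1377 deposited barcodes were used, with 16223444 UMIs and a median of 8635 per barcode (range 2506 to 113702), because 31 barcode sequences occurred in both libraries and were left out of CAL51. A further 64 MDAMB468 barcodes and 7 CAL51 barcodes were satellites, meaning that a deeper barcode of their library, with 5 times their UMIs or more, differed from them by 1 base. The epithelial markers EPCAM, KRT8 and KRT18 had between 3052 and 25221 UMIs in each line. The keratins KRT5 and KRT7 had 2224 and 5243 UMIs in MDAMB468, and both were at 0 in CAL51. EGFR had 2524 UMIs in MDAMB468 and 196 in CAL51, and RB1 had 18 and 1266. Of 11 markers of immune, endothelial and stromal cells, the 9 found in the files summed to 33 UMIs in MDAMB468 and 31 in CAL51, and PTPRC, LYZ, CD74 and VWF were at 0 in MDAMB468. COL1A1 had the most of these UMIs, with 22 in MDAMB468 (5.23% of barcodes) and 11 in CAL51 (0.743%).

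Summed RNA of the 9 members was higher in MDAMB468. Scaled to the line's total of UMIs as CPM, the 9 members together reached 1229 CPM (6760 UMIs) in MDAMB468 and 397 CPM (6440 UMIs) in CAL51. Of the 9 members, 8 were at least 2-fold higher in MDAMB468 on the log2(CPM + 1) scale, and none was 2-fold higher in CAL51. Over all 15347 genes with at least 20 UMIs, 15.8% were at least 2-fold higher in MDAMB468 and 18.6% in CAL51. The members' median log2 difference, MDAMB468 minus CAL51, was 1.93, and that of all these genes was -0.13. The count of 8 became 7 when the barcodes rich in interferon-induced IFIT transcripts (below) were left out, and under 5 other settings, because TAP1 lay close to the limit.

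**Figure D1:**
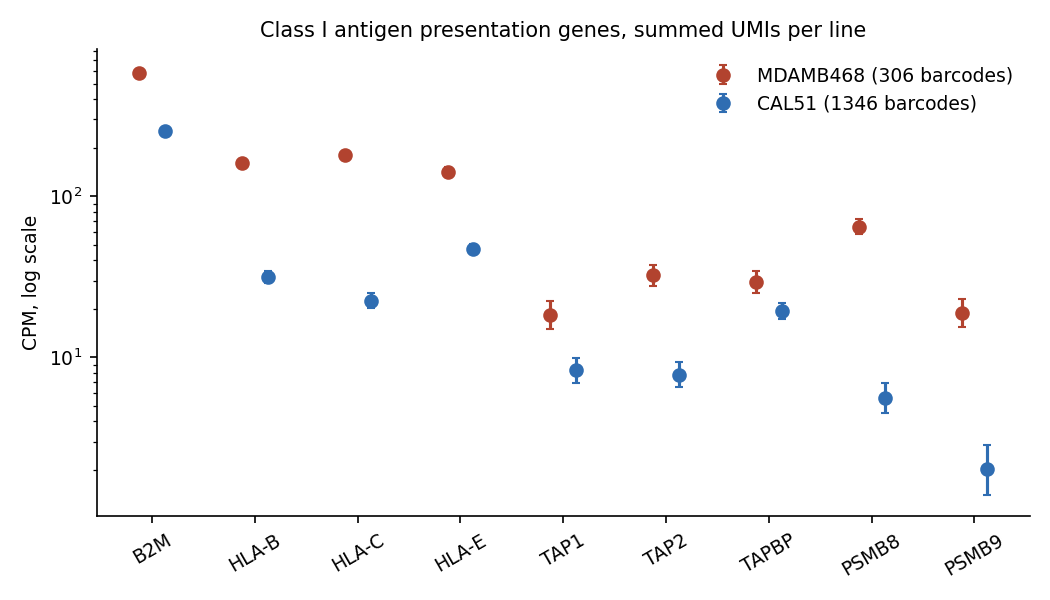
CPM (log scale) of the 9 members in the summed UMIs of each line, with 1 point per line and bars for the exact 95% Poisson interval. Every member lies higher in MDAMB468, with the narrowest gap for TAPBP (29.4 against 19.4 CPM) and the widest for PSMB8 (64.9 against 5.61 CPM).

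The light chain was higher in MDAMB468. B2M (ENSG00000166710, chromosome 15, 44711487 to 44718877) had 3212 UMIs in MDAMB468, or 584 CPM (564 to 604), and 4099 UMIs in CAL51, or 253 CPM (245 to 261). The ratio was 2.31 (2.21 to 2.42), a log2 difference of 1.21. B2M was seen in 94.8% of MDAMB468 barcodes and 79.8% of CAL51 barcodes.

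The heavy chains differed more between the lines than B2M did, with intervals of the ratios that did not overlap that of B2M. HLA-B, which presents peptides to CD8 T cells, had 883 UMIs (160 CPM) in MDAMB468 and 511 UMIs (31.5 CPM) in CAL51, a ratio of 5.10 (4.56 to 5.69). HLA-C, which is also a main ligand of killer-cell immunoglobulin-like receptors, had 987 UMIs (179 CPM) and 365 UMIs (22.5 CPM), a ratio of 7.97 (7.06 to 9.02). HLA-E, the ligand of the natural killer receptor CD94/NKG2A, had 775 UMIs (141 CPM) and 764 UMIs (47.1 CPM), a ratio of 2.99 (2.70 to 3.31). The order of the ratios was thus HLA-C, HLA-B, HLA-E, and neighbouring intervals in this order were separate. CAL51 barcodes rarely held a heavy-chain UMI: 25.8% had HLA-B, 19.9% HLA-C and 36.0% HLA-E, against 65.0%, 69.0% and 67.0% of MDAMB468 barcodes.

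Classical heavy-chain genes are similar in sequence and vary between people, so how reads were assigned bears on these values. Of the distinct 50-base words in the last 500 bases of their GENCODE release 29 coding transcripts, 38 of 1352 (2.81%) for HLA-B and 97 of 1231 (7.88%) for HLA-C also occurred in transcripts of other genes, and 0 did for each of the other 7 members. The annotated models of HLA-B and HLA-C also overlap in position, HLA-B at chromosome 6, 31269491 to 31357188 and HLA-C at 31268749 to 31272130. The alleles of the lines were not analysed here, and the part of read assignment in the differences of HLA-B and HLA-C was not tested.

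Both subunits of the peptide transporter were higher in MDAMB468, by unequal amounts. TAP1 (chromosome 6, 32845209 to 32853978) had 101 UMIs (18.4 CPM) in MDAMB468 and 135 UMIs (8.32 CPM) in CAL51, a ratio of 2.21 (1.69 to 2.88). TAP2 (chromosome 6, 32821833 to 32838780) had 179 UMIs (32.5 CPM) and 127 UMIs (7.83 CPM), a ratio of 4.16 (3.29 to 5.26). The intervals of the ratios were separate. TAP1 barely passed the 2-fold limit, with a log2 difference of 1.05, and lay between 0.63 and 1.22 over the 12 settings tried.

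Tapasin, which holds the empty class I molecule at the transporter, was the member with the smallest difference. TAPBP (chromosome 6, 33299694 to 33314387) had 162 UMIs (29.4 CPM) in MDAMB468 and 315 UMIs (19.4 CPM) in CAL51, a ratio of 1.52 (1.25 to 1.84) and a log2 difference of 0.58. That difference was 0.12 when every barcode was given the same weight instead of being weighted by its UMIs.

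The catalytic immunoproteasome subunits PSMB8 and PSMB9 had the highest ratios of the 9 members, and the interval of PSMB9 overlapped that of HLA-C. PSMB8 (chromosome 6, 32840717 to 32844703) had 357 UMIs (64.9 CPM) in MDAMB468 and 91 UMIs (5.61 CPM) in CAL51, a ratio of 11.6 (9.17 to 14.7). PSMB9 (chromosome 6, 32844136 to 32859585) had 104 UMIs (18.9 CPM) and 33 UMIs (2.03 CPM), a ratio of 9.29 (6.23 to 14.2). PSMB9 was seen in 2.23% of CAL51 barcodes (1.51% to 3.17%) and in 22.9% of MDAMB468 barcodes. The annotated models of PSMB8, PSMB9 and TAP1 overlap one another or the antisense gene PSMB8-AS1, and the sources used here do not say whether counting used the strand, so reads of these genes may be divided uncertainly.

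Inducible subunits replace constitutive ones in the proteasome core, and the constitutive partners were higher in CAL51. PSMB5, replaced by PSMB8, stood at 206 CPM in MDAMB468 and 504 CPM in CAL51 (log2 difference -1.28). PSMB6, replaced by PSMB9, stood at 211 and 377 CPM (-0.83), and PSMB7, replaced by PSMB10, at 147 and 333 CPM (-1.17). PSMB8 UMIs therefore made up 23.9% (21.8% to 26.2%) of the PSMB8 and PSMB5 UMIs in MDAMB468 and 1.10% (0.888% to 1.35%) in CAL51. PSMB9 made up 8.23% (6.77% to 9.88%) of the PSMB9 and PSMB6 UMIs in MDAMB468 and 0.537% (0.370% to 0.753%) in CAL51. These are shares of UMIs of different transcripts, not of proteasome particles.

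The third inducible subunit and the activator cap differed less. PSMB10 had 90 UMIs (16.4 CPM) in MDAMB468 and 120 UMIs (7.40 CPM) in CAL51, a ratio of 2.21 (1.66 to 2.93), and made up 9.99% (8.11% to 12.1%) and 2.17% (1.80% to 2.59%) of the PSMB10 and PSMB7 UMIs. PSME1 and PSME2, the subunits of the interferon-inducible PA28 activator, were between the limits, with log2 differences of 0.67 and 0.37. The list of these 3 genes had a median of 0.67. Of 16 constitutive proteasome genes, 1 (PSMA2, log2 difference 1.20) was at least 2-fold higher in MDAMB468, 4 were in CAL51, and the median was -0.53, with PSMA1 lowest at -1.29. Among all genes with at least 20 UMIs, the shares were 15.8% and 18.6%.

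The other class I and loading genes did not share the members' direction as a list. Of 10 such genes with at least 20 UMIs, 1 was at least 2-fold higher in MDAMB468 and 2 in CAL51, with a median log2 difference of -0.42. These counts were close to the shares over all genes with at least 20 UMIs, 15.8% and 18.6%. The one higher in MDAMB468 was HLA-F, a non-classical heavy chain, with 188 UMIs against 2, a ratio of 277 (75.7 to 2306). The chaperones ran from CANX, at 946 and 905 CPM (log2 difference 0.06), through CALR, at 774 and 1387 CPM (-0.84), to PDIA3, at 518 and 1658 CPM (-1.68). ERAP1, which trims peptides in the endoplasmic reticulum, differed by -0.40, and ERAP2 had 8 and 19 UMIs.

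Regulators of the pathway were mixed. Of 25 genes for class I transcription factors and interferon signalling, 6 were at least 2-fold higher in MDAMB468 and 1 in CAL51, with a median of 0.27. The shares over all genes with at least 20 UMIs were 15.8% and 18.6%. IFNGR1, a chain of the interferon-γ receptor, had 1266 UMIs (230 CPM) in MDAMB468 and 344 UMIs (21.2 CPM) in CAL51, a log2 difference of 3.38. IRF1, an interferon-induced activator of class I genes, had 216 UMIs (39.3 CPM) and 101 UMIs (6.23 CPM), a difference of 2.48. NLRC5, the class I transactivator, had 13 UMIs in MDAMB468 and 1 in CAL51, a ratio of 38.3 (5.76 to 1629). NFYA, a subunit of the factor that binds the CCAAT box, was lowest at -1.14.

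Most interferon-stimulated genes were higher in MDAMB468. Of 24 such genes, 20 were at least 2-fold higher in MDAMB468 and 1, IFITM2, in CAL51 (57 and 939 UMIs, log2 difference -2.37), and the median was 2.65. Across all genes with at least 20 UMIs, 15.8% and 18.6% were. MX1, an antiviral GTPase, differed most on the log2(CPM + 1) scale, with 313 UMIs in MDAMB468 and 11 in CAL51 (5.11), a ratio of 83.9 (46.3 to 170). The count of 20 became 16, with a median of 2.33, without the IFIT-rich barcodes described below.

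**Figure D2:**
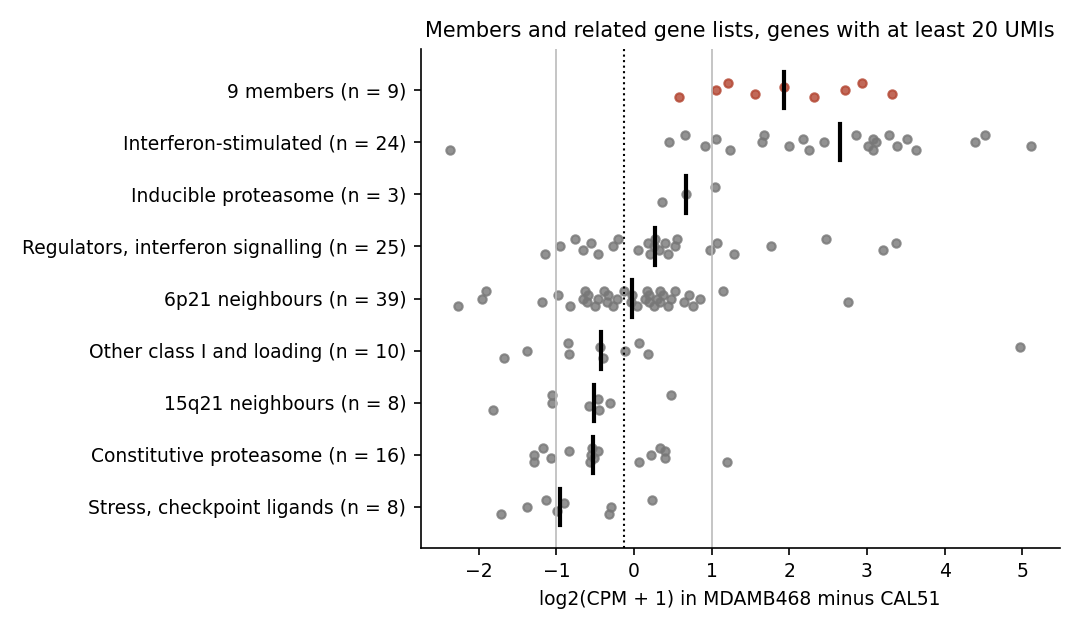
Difference in log2(CPM + 1), MDAMB468 minus CAL51, for the 9 members and for related gene lists, with 1 point per gene with at least 20 UMIs, black bars for list medians, grey lines at the 2-fold limits and a dotted line at the median of all genes (-0.13). The members (median 1.93) and the interferon-stimulated genes (median 2.65) lie mostly right of the upper limit, while the constitutive proteasome genes centre on -0.53.

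Other immune ligands and the members' genomic neighbours are given for comparison. Their counts stand beside shares over all genes with at least 20 UMIs of 15.8% higher in MDAMB468 and 18.6% in CAL51. Of 8 stress and checkpoint ligands, none was at least 2-fold higher in MDAMB468 and 3 were in CAL51 (median -0.95, from 0.23 for MICA to -1.72 for NECTIN2). CD274, which encodes PD-L1, had 8 UMIs in MDAMB468 and 0 in CAL51. MHC class II genes were close to absent in both lines: the 6 found in the files summed to 29 and 92 UMIs, and the only ones with 20 UMIs were HLA-DMA (0.93) and HLA-DMB (-0.72). Of 39 genes that neighbour the members on chromosome 6 without a part in presentation, 2 were at least 2-fold higher in MDAMB468 and 4 in CAL51 (median -0.03, from 2.75 for IER3 to -2.27 for PPT2). Of 8 neighbours of B2M on chromosome 15, none was higher in MDAMB468 and 3 were in CAL51 (median -0.52, from 0.48 for SORD to -1.81 for GOLM2). Copy number of these regions was not measured, and its part in the members' differences was not tested.

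To compare barcodes at equal depth, each was thinned at random to 2500 UMIs, which all 306 and 1346 barcodes reached. B2M was then seen in 74.2% (68.9% to 79.0%) of MDAMB468 barcodes and 43.0% (40.4% to 45.7%) of CAL51 barcodes. HLA-B was seen in 29.1% and 7.80%, HLA-C in 28.8% and 5.20%, and HLA-E in 28.8% and 11.1%. PSMB8 was seen in 12.7% (9.22% to 17.0%) and 1.19% (0.681% to 1.92%), PSMB9 in 5.88% and 0.446%, TAP2 in 7.19% and 1.71%, and TAP1 in 3.59% (1.81% to 6.34%) and 1.49% (0.910% to 2.29%). TAPBP was the exception at this depth, at 3.27% (1.58% to 5.93%) of MDAMB468 and 4.90% (3.81% to 6.20%) of CAL51 barcodes, intervals that overlap. In barcodes thinned to 10000 UMIs, TAPBP was seen in 28.1% (21.1% to 35.9%) of 153 MDAMB468 and 14.3% (11.5% to 17.5%) of 558 CAL51 barcodes. No cell type without these genes was present in either library, so the share that free RNA in the droplets gives was not measured.

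**Figure D3:**
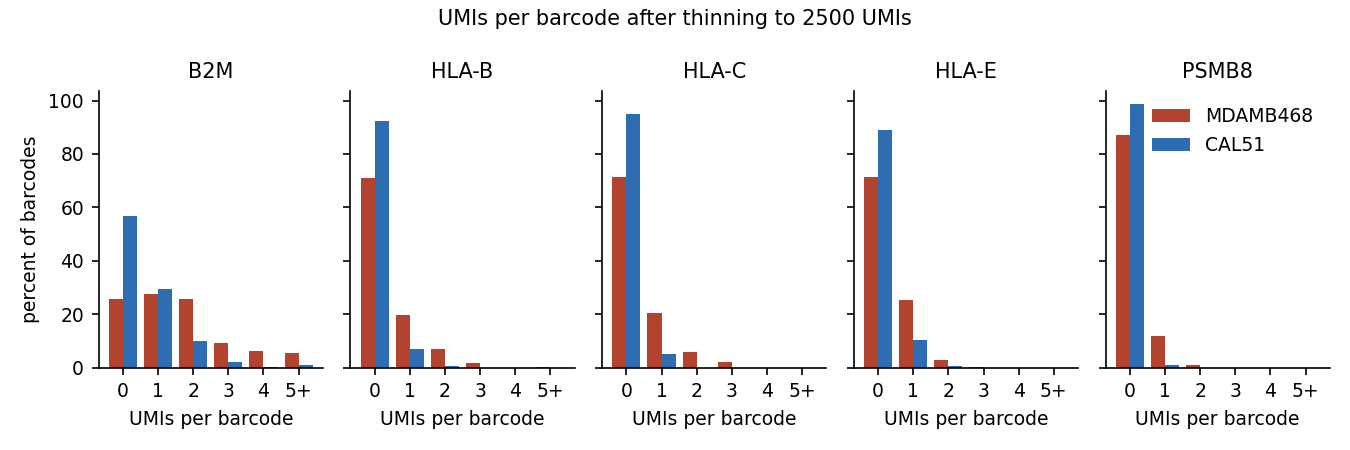
Percent of barcodes (y axis) with 0 to 5 or more UMIs (x axis) of 5 members, after thinning each of the 306 MDAMB468 and 1346 CAL51 barcodes to 2500 UMIs. In both lines most barcodes hold 0 UMIs of HLA-B, HLA-C, HLA-E and PSMB8, for example 70.9% of MDAMB468 and 92.2% of CAL51 barcodes for HLA-B. At least 1 B2M UMI is held by 74.2% of MDAMB468 and 43.0% of CAL51 barcodes.

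Many CAL51 barcodes showed none of the members at this depth. At 2500 UMIs, 560 CAL51 barcodes (41.6%, 39.0% to 44.3%) and 23 MDAMB468 barcodes (7.52%, 4.82% to 11.1%) held no UMI of any member. At least 3 different members were seen in 36 CAL51 barcodes (2.67%) and 85 MDAMB468 barcodes (27.8%). The median sum over the members was 3 UMIs per barcode in MDAMB468 and 1 in CAL51. Among barcodes that allowed thinning to 10000 UMIs, 153 and 558, every MDAMB468 barcode held member UMIs, while 43 CAL51 barcodes (7.71%, 5.63% to 10.2%) held none, and the medians were 5 and 2 detected members.

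B2M varied more between CAL51 barcodes than between MDAMB468 barcodes. Its excess variance at 2500 UMIs, the variance beyond Poisson counting divided by the squared mean, was 0.90 in CAL51 and 0.37 in MDAMB468, against medians over all genes with a mean of at least 0.1 UMIs of 0.21 and 0.13. At 10000 UMIs it was 0.77 in CAL51 and 0.06 in MDAMB468. The MDAMB468 value at 2500 UMIs was 0.28 without satellites. The excess variance of HLA-E changed sign with depth and with the random draw: it was -0.24 in MDAMB468 and -0.04 in CAL51 at 2500 UMIs, with medians of 0.11 and 0.18 over 20 other draws, and 0.35 and 0.46 at 10000 UMIs. At 10000 UMIs HLA-E thus exceeded B2M in MDAMB468 and not in CAL51.

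A few barcodes carried part of this spread. IFIT1, IFIT2 and IFIT3 are antiviral genes that are strongly induced by interferon, and barcodes with at least 0.05% of their UMIs on these 3 genes are called IFIT-rich, a limit chosen after the values were seen. They numbered 7 of 306 in MDAMB468, where a single barcode held 871 of the line's 1060 IFIT UMIs (82.2%), and 11 of 1346 in CAL51, which held 493 of 682 (72.3%). Of the 7, 1 was a satellite. Without the IFIT-rich barcodes the excess variance of B2M was 0.42 in CAL51 and 0.21 in MDAMB468.

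In CAL51 the 11 IFIT-rich barcodes stood at 1942 CPM of B2M (1681 to 2232) and the other 1335 at 242 CPM (234 to 250), a ratio of 8.03 (6.92 to 9.26). Their single values ran from 269 to 5073 CPM with a median of 1666, against a median of 201 CPM in the other barcodes. All 11 therefore lay above that median, while the highest of the other barcodes, at 3091 CPM, lay within their range. The lowest of the 11, at 269 CPM, held 1 B2M UMI among 3722 UMIs, so a single molecule put it above the median. It passed the IFIT limit on 2 UMIs, as did another barcode with 3851 UMIs. In MDAMB468 the 7 IFIT-rich barcodes stood at 1534 CPM (1322 to 1770) and the other 299 at 562 CPM (542 to 583), a ratio of 2.73 (2.34 to 3.16). Their single values ran from 878 to 4858 CPM, and to 2208 CPM at most once the satellite was left out. The barcode with 871 IFIT UMIs held 68673 of their 121933 UMIs and 101 of their 187 B2M UMIs, so the summed value leans on it. The median of the other 299 MDAMB468 barcodes was 526 CPM.

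**Figure D4:**
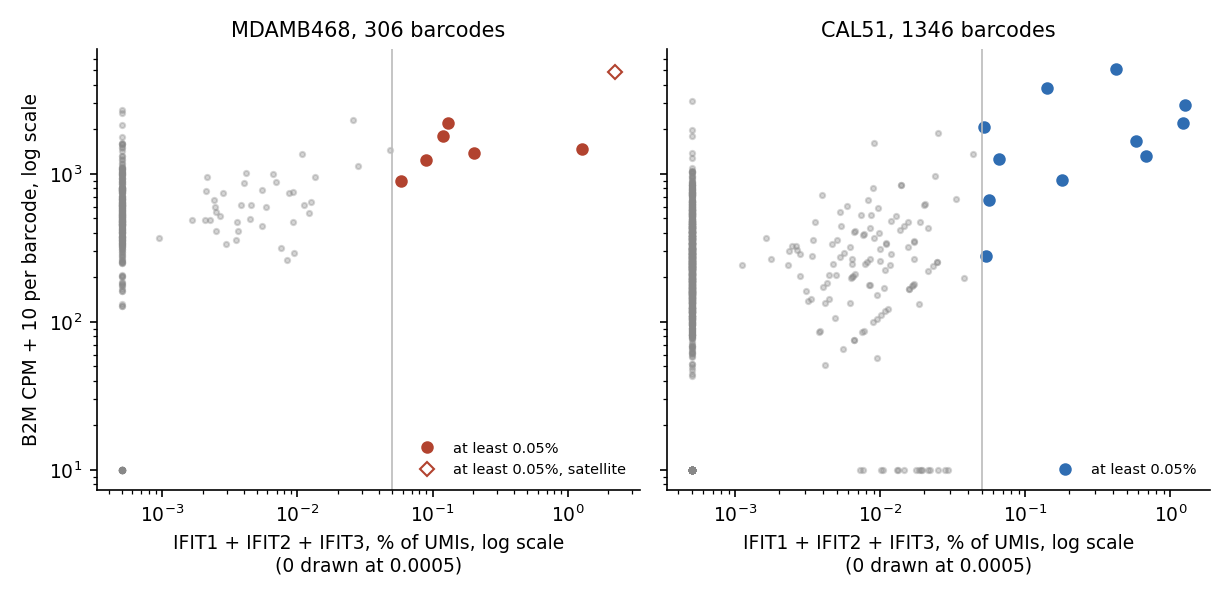
B2M level (CPM + 10, log scale) against the share of UMIs on IFIT1, IFIT2 and IFIT3 (percent, log scale, with 0 drawn at 0.0005), with 1 point per barcode, a vertical line at 0.05%, filled colour for IFIT-rich barcodes and an open diamond for the satellite among them. The 11 CAL51 barcodes right of the line have a median of 1666 CPM of B2M against 201 CPM in the others.

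The remaining members followed B2M only in part. In the IFIT-rich barcodes of MDAMB468, the ratio to the other barcodes was 2.93 (2.19 to 3.85) for HLA-B, 2.16 (1.57 to 2.90) for HLA-C, 1.65 (1.09 to 2.41) for HLA-E and 3.80 (1.59 to 7.79) for TAP1, and PSMB8 was at 0.627 (0.202 to 1.48) with 5 UMIs. The deepest of these barcodes held 68673 of their 121933 UMIs, so these ratios lean on 1 barcode. In the IFIT-rich barcodes of CAL51, HLA-B had 8 UMIs and a ratio of 2.51 (1.08 to 4.99), HLA-E had 11 and 2.31 (1.15 to 4.16), and TAPBP had 7 and 3.59 (1.43 to 7.49). HLA-C had 2 UMIs there, a ratio of 0.871 (0.105 to 3.17), and the 3 PSMB8 UMIs came from a single barcode. The interval of the B2M ratio in CAL51 lay above those of HLA-B, HLA-C and HLA-E. It overlapped those of TAP1, TAP2, TAPBP, PSMB8 and PSMB9, which had at most 7 UMIs each in these barcodes. PSMB8 had a ratio of 5.39 (1.09 to 16.3) there.

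The genes whose counts were most like those of B2M between barcodes depended on depth. At 2500 UMIs and on the log2(UMI + 1) scale, the Pearson correlation with B2M in 306 MDAMB468 barcodes was highest for ISG15 (0.27), IFIT1 (0.25), PLAAT4 (0.22), IFIT2 (0.20) and JUN (0.20). In 1346 CAL51 barcodes it was highest for ISG15 (0.21), followed by NPC2 (0.11), IGFBP3 (0.10), TMSB10 (0.10) and LGALS3 (0.096). At that depth ISG15, which encodes a ubiquitin-like protein made in response to interferon, was first in both lines. Over barcodes thinned to 10000 UMIs, ISG15 was not among the 5 nearest to B2M in MDAMB468, where RUFY3 (0.31), RABL3 (0.29) and FAU (0.29) led. In CAL51 it came after IFIT1 (0.31) and CCL5 (0.28) at that depth, with 0.26. At 2500 UMIs and without the IFIT-rich barcodes the correlation of B2M and ISG15 was 0.17 in MDAMB468 and 0.082 in CAL51, and without satellites as well 0.11 in MDAMB468. These values describe barcodes of 1 library, which share its preparation and sequencing.

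The sum over all 9 members shared some of these neighbours. At 2500 UMIs they included in MDAMB468 ISG15 (0.26), MX1 (0.24), PLAAT4 (0.23) and IFIT1 (0.21), and in CAL51 ISG15 (0.19), NPC2 (0.12), LGALS3 (0.11), TMSB10 (0.10) and SPINT2 (0.095). At 10000 UMIs RUFY3 was nearest in MDAMB468 (0.34) and IFIT1 in CAL51 (0.27). Correlations this small in sparse counts are descriptions only.

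Among the members themselves, HLA-B and HLA-C stood out. In barcodes thinned to 10000 UMIs their correlation was 0.39 in MDAMB468 (153 barcodes) and 0.46 in CAL51 (558 barcodes), the highest of any member pair in either line. For pairs of other genes the middle 95% of correlations ran from -0.15 to 0.17 in MDAMB468 and from -0.085 to 0.090 in CAL51. At 2500 UMIs the correlation of HLA-B and HLA-C was 0.17 and 0.27, and it stayed at 0.38 and 0.46 at 10000 UMIs without the IFIT-rich barcodes. At 2500 UMIs it was 0.069 in MDAMB468 barcodes at or above the median total and 0.29 in those below it, and 0.23 and 0.32 in CAL51. These 2 genes also share the 50-base words and overlapping models described above, and the part of read assignment in their correlation was not tested.

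The other pairs were lower. The median correlation over member pairs with a mean of at least 0.1 UMIs was 0.037 in MDAMB468 (10 pairs) and 0.011 in CAL51 (1 pair, B2M and HLA-E) at 2500 UMIs. At 10000 UMIs it was 0.048 over 36 pairs and 0.042 over 10 pairs. B2M and HLA-B, partners in 1 molecule, reached 0.15 in MDAMB468 and 0.11 in CAL51 at that depth, and PSMB8 and PSMB9 reached 0.05 in MDAMB468. Beside HLA-B with HLA-C, the pairs above the middle 95% of other genes were B2M with HLA-B and HLA-E with TAPBP (0.099) in CAL51, and HLA-C with TAP1 in MDAMB468 (0.168, against a limit of 0.167). Counting noise lowers a correlation at means as low as these.

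**Figure D5:**
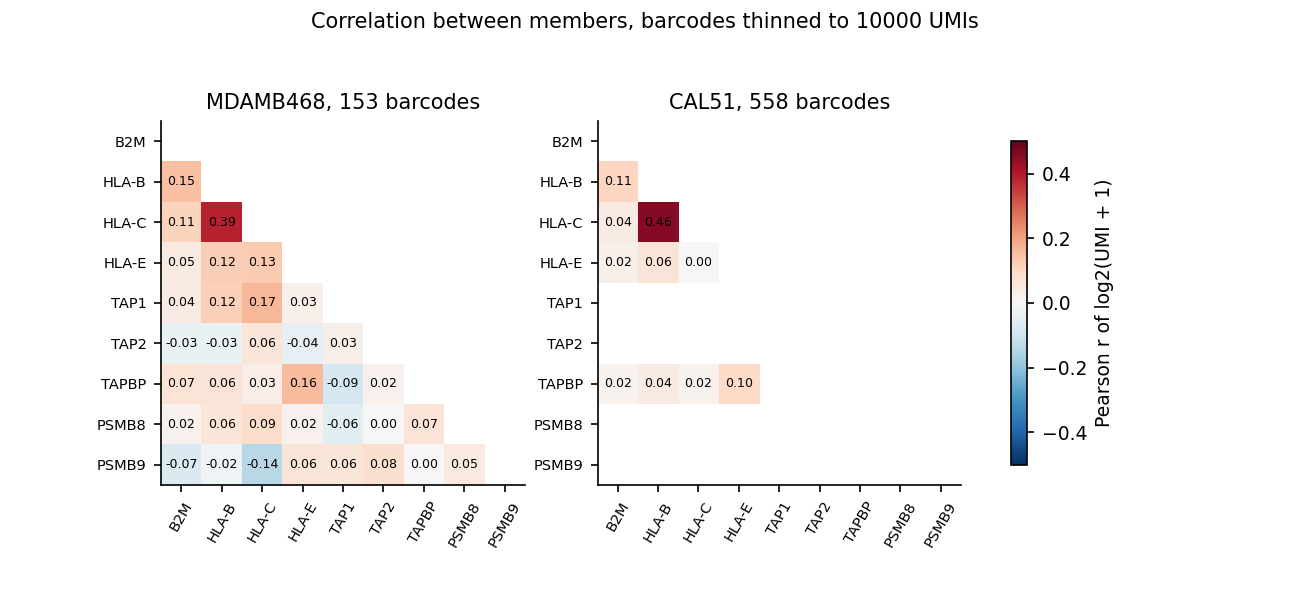
Pearson correlation of log2(UMI + 1) for each pair of members with means of at least 0.1 UMIs, over barcodes thinned to 10000 UMIs (153 of MDAMB468, 558 of CAL51), with blue for negative and red for positive values and pairs below that mean left blank. HLA-B with HLA-C is the strongest pair in both lines, at 0.39 and 0.46.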

How the data were processed

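Polyadenylated RNA of MDAMB468 and CAL51 cells was captured by Drop-seq, with 1 library per line, per the labels. The deposited values are UMI counts, whole numbers per gene and barcode that carry no visible normalisation. Deposited barcode names give a line prefix, which assigned each barcode to its line, and a 12-base sequence. STARsolo is named, without a version, in the submitters' processing notes. Not given in the sources used here are the genome build, the annotation, the use of strand, the treatment of doublets and of reads that match several genes, and the selection of barcodes. No deposited barcode had fewer than 2501 UMIs, and none was removed here as a doublet.

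The members and lists were chosen with earlier results of these data known. A table of gene names supplied symbols for 30730 identifiers, GENCODE release 29 on GRCh38 supplied positions, and RefSeq (GRCh38.p14) supplied promoters for 8 of the 9 members. UMIs were summed per line and scaled to CPM, with a pseudocount of 1 for log2 differences, which shrinks differences at low counts. Genes with at least 20 UMIs over both lines entered the counts of genes. Poisson, Clopper-Pearson and conditional binomial intervals are at 95%. Thinning drew UMIs without replacement. The variance and correlation steps were tested on simulated data. How they behave at means as low as those of most members in thinned barcodes was not tested.

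Named genes are the members, 14 genes fixed by name and the highest and the lowest of each list, which makes 38 genes compared between the lines under every scaling and filter. The text also names the 5 genes nearest to B2M and to the members' sum in each line at 2500 UMIs, without such line comparisons. Some of these genes are not reported here. CD274, GPC3, the nearest genes at 10000 UMIs and the IFIT genes as a group were chosen after their values were seen. Alternatives were other scalings, pseudocounts, barcode filters, fold limits, depths, seeds and Spearman correlation. Computation used Python 3.11.15 (matplotlib 3.10.9, pandas 2.3.3, scipy 1.17.1, numpy 2.4.6), and TMM factors came from edgeR 4.0.16 in R 4.3.3.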

Additional observations from a re-analysis of the deposited data

Results flagged for a closer look

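The 31 CAL51-labelled barcodes whose sequences also occur in the MDAMB468 library were left out of every comparison, and they held a signal of the members. Their 135240 UMIs included 142 of the 9 members, or 1050 CPM (884 to 1238), against 397 CPM (387 to 407) in the 1346 CAL51 barcodes used. The MDAMB468 barcodes with the same sequences stood at 1234 CPM. The 31 barcodes also held 106 UMIs of KRT7, which had 5243 in MDAMB468 and 0 in the CAL51 barcodes used, and 15 UMIs of GPC3, which had 0 in MDAMB468 and 10814 in the CAL51 barcodes used. By gene, 92 of the 142 UMIs were B2M, 15 HLA-E, 12 HLA-B and 10 HLA-C. Keeping these barcodes in CAL51 left the count of members at least 2-fold higher in MDAMB468 at 8.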

How the results depend on the processing

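The count of members at least 2-fold higher in MDAMB468 was 8 as reported. It was 7 with TMM scaling, with median-of-ratios scaling, with a pseudocount of 10 CPM, with the shared barcode sequences left out of both lines, with only barcodes of at least 5000 UMIs, and without IFIT-rich barcodes (chosen after seeing the data), in each case because TAP1 fell under the limit. It was 4 at a 4-fold limit, and 8 under the other alternatives. The count at least 2-fold higher in CAL51 was 0 in all of them. All 9 members were higher in MDAMB468 in all 12 settings of scaling, pseudocount and barcodes, and the widest range was that of PSMB9, 1.26 to 3.15 (log2). TMM and median-of-ratios scaling moved the median of all genes by -0.12 and -0.13. Of 418 line differences of 38 genes (the members, the genes fixed by name and the extremes of each list), 360 stayed within their counting interval and 58 moved further. CANX, at 0.06, was -0.07 and -0.08 under these 2 scalings, and no other of the 38 changed sign. The share of all genes at least 2-fold higher was 9.80% (MDAMB468) and 9.45% (CAL51) with no filter on low counts, and 12.2% and 19.6% at 100 UMIs or more. The median correlation between members in MDAMB468, 0.037, was 0.087 at 1000 UMIs, 0.066 in barcodes below the median total and 0.23 without thinning, where depth differs between barcodes. In CAL51 it was 0.011, and 0.039 below and -0.020 at or above the median total, 0.042 at 10000 UMIs (10 pairs instead of 1) and 0.089 without thinning. The cause of these shifts was not tested. At 1000 UMIs CAL51 gave no value, since fewer than 2 members had a mean of 0.1 UMIs. No paired analysis was possible because each line had 1 library.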
